A study of Mus musculus with 9 samples.

Results

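The genes described here encode the nuclear pore complex and the carriers that take cargo through it, and they were scored for a binding peak of BAP1, a deubiquitinase that removes ubiquitin from histone H2A. All protein-coding genes of the GENCODE M1 annotation were taken whose symbol is Nup, Kpna, Kpnb, Ipo, Xpo or Tnpo followed by a number. This gave 44 genes out of 22367 protein-coding genes on the nuclear chromosomes. They carry 43 symbols, because *Ipo11* has 2 gene identifiers, of which ENSMUSG00000078933.1 is a fragment that lies inside the other. The rule reads names only and no measured value, but the set was chosen with earlier results of these data known. A gene counted as having a gene-proximal peak when the middle of a peak lay within 1 kb of the transcription start site (TSS) of any of its transcripts.

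The peaks come from ChIP-Seq in Ba/F3 cells, mouse B cell precursors that depend on IL-3 in culture. BAP1 was recovered with the anti-BAP1 antibody D1W9B from WT cells, and a BAP1 protein with 3 FLAG epitopes (BAP1-FLAGx3) was recovered with the anti-FLAG antibody M2 from cells that express the murine protein stably under puromycin selection, each against input DNA of the same cells. The series has 9 samples, and its H2AK119ub samples from WT cells and from the Bap1 KO lines 3 and 4, and the input of those lines, were not analysed here. All cells are of the same line in culture, whether the BAP1-FLAGx3 cells are 1 clone is not given in the sources used here, and markers of the cell type could not be checked because the list holds positions only. The authors deposited 1 list for both immunoprecipitations together, with 13164 peaks of 200 bp each on the mm9 build, and without heights or p-values. The list does not say which antibody gave a peak. Each immunoprecipitation was sequenced once and the depth is unknown, so no value has a replicate error, no test was made, and the 95% Wilson intervals given cover counting error only. The running number of a peak in the list followed its distance to the nearest TSS (Spearman's rho = 0.852 across 13164 peaks, given as a description), so the place in the list was not read as strength.

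The nuclear pore is a channel through the nuclear envelope that is built of nucleoporins. The Y complex and the inner ring form its scaffold, membrane nucleoporins anchor it, nucleoporins with phenylalanine-glycine repeats fill the channel, and further subunits make up the cytoplasmic face and the nuclear basket. Importins carry cargo with a nuclear localization signal inwards, exportins carry cargo with a nuclear export signal outwards, and the GTPase RAN, in its GTP form inside the nucleus, sets the direction by releasing or stabilizing the cargo. Dividing cells take the pore apart in mitosis and rebuild it afterwards. Among B lymphocyte precursors, the paper describes the large pre-B cells as highly proliferative. A link between cell division and the peaks was not tested.

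Sequences of 11 genes are given as examples, of which *Kpna2* has no gene-proximal peak. Each is read 5′ to 3′ on the strand of the gene from mm9, and covers the stretch of the peak that lies outside annotated UTRs and coding exons. Capitals mark letters that match a searched motif on either strand, and lower case marks the rest. *Nup107*, *Nup62*, *Nup50*, *Nup93*, *Nup133* and the outer *Tnpo1* promoter were picked because their peaks hold the most kinds of motif. They are thus not typical of the 42 peaks at these genes, which held a median of 2.00 kinds, with none in 7 peaks (16.7%). All 10073 gene-proximal peaks of the list held a median of 1.00 kinds, with none in 10.7%. The first set holds the core of the NRF1 motif, GCGCATGC, at 2 subunits of the pore scaffold and channel and 1 of the nuclear basket. It comes from chr10:117229762-117229868 (minus strand), chr7:52071350-52071457 (plus strand) and chr15:84753585-84753784 (plus strand).
Nup107: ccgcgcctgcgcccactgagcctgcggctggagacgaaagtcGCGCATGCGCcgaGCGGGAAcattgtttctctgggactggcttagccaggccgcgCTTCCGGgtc
Nup62: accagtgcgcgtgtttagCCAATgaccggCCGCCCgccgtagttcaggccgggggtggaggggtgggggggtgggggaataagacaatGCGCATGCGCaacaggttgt
Nup50: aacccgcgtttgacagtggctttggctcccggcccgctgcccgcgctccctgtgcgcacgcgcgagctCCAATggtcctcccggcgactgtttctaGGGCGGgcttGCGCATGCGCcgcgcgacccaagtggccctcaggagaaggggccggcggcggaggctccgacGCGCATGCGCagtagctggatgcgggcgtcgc

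The palindrome GCGCATGCGC in these stretches holds the core on both strands. It occurs once in the stretches of *Nup107* and *Nup62* and at 2 places in that of *Nup50*. The next set shows the CCAAT box, the motif of NFY, at the main importin beta, the main exportin and an inner ring subunit. These are chr11:97049211-97049410 (minus strand), chr11:23155747-23155946 (plus strand) and chr8:96738259-96738458 (plus strand).
Kpnb1: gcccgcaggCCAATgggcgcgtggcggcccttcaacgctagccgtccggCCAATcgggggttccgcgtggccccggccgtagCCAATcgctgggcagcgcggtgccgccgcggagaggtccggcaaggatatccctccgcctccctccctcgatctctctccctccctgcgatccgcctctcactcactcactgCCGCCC
Xpo1: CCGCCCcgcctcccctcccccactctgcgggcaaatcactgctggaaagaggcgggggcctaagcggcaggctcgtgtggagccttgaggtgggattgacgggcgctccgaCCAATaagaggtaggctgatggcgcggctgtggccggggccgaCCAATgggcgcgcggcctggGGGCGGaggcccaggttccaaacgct
Nup93: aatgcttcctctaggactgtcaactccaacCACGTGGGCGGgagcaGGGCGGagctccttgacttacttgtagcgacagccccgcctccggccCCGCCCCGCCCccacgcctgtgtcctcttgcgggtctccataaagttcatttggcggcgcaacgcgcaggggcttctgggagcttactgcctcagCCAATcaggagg

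In the *Kpnb1* peak the CCAAT box stands at 3 places, with centers 131, 164 and 204 bp upstream of the TSS. In the *Xpo1* peak it stands 138 and 181 bp upstream, and in the *Nup93* peak 48 bp upstream. A further set shows peaks of other make-up. *Nup133* (chr8:126473166-126473313, minus strand) holds the CREB and ATF motif TGACGTCA at 2 places, and the nearer of the *Ipo7* peaks (chr7:117161786-117161938, plus strand) holds none of the motifs. The stretch of *Nup98* (chr7:109358635-109358721, minus strand) is the whole interval between its TSS and the nearest TSS of *Pgap2*, a gene on the opposite strand.
Nup133: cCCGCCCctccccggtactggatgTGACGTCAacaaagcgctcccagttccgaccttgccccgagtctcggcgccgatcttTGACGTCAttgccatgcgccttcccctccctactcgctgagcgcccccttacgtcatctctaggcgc
Ipo7: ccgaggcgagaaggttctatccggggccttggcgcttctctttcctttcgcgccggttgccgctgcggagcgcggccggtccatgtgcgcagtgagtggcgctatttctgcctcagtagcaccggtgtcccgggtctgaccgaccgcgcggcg
Nup98: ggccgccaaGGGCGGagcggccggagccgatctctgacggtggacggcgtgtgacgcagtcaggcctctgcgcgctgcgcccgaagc

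The last set gives both peaks of *Tnpo1*, which lie at separate promoters (chr13:99660998-99661112 and chr13:99696340-99696514, both minus strand), and, for contrast, the 200 bases before the TSS of *Kpna2* (chr11:106860856-106861055, minus strand), a gene without a gene-proximal peak.
Tnpo1 inner promoter: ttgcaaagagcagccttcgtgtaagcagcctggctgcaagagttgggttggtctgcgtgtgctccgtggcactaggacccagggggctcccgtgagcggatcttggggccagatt
Tnpo1 outer promoter: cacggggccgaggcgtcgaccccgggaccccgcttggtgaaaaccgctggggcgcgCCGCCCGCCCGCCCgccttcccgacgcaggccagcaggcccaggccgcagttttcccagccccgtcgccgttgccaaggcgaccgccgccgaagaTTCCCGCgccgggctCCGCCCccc
Kpna2 without a peak: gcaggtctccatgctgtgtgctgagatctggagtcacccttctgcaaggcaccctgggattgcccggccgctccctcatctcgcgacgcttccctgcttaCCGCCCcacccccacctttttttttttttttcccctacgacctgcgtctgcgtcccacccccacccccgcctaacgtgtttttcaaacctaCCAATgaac

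The stretch of the inner *Tnpo1* promoter holds none of the motifs, whereas that of the outer one is rich in the SP1 and KLF motif. The *Kpna2* stretch holds a CCAAT box and an SP1 and KLF motif as well, although no peak is listed there.

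A gene-proximal BAP1 peak was present at 35 of the 44 genes, a share of 79.5% (95% interval 65.5 to 88.8), against 39.6% of all protein-coding genes. The interval lies above the value for all genes, but the set was chosen with earlier results of these data known. The comparison is therefore a description. Counting each symbol once, it was 35 of 43 (81.4%, 67.4 to 90.3). Nucleoporins and transport factors had nearly the same share, with 17 of 21 genes (81.0%, 60.0 to 92.3) and 18 of 23 genes (78.3%, 58.1 to 90.3). In total, 42 peaks of the list lay within 1 kb of a TSS of these genes. The middle of 30 peaks was outside the gene, 7 were in an annotated UTR exon and 5 in an intron. This split was not made for all gene-proximal peaks, so it is not read as particular to these genes.

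Most of the genes start in CpG-rich sequence, and that property goes with a peak in the genome at large. The CpG ratio is the observed over the expected number of CpG dinucleotides within 500 bp on either side of a TSS, and a gene was called CpG-rich when it reached 0.6 at the TSS of its longest transcript. By this measure 35 of the 44 genes (79.5%) were CpG-rich, against 45.6% of all protein-coding genes. Among CpG-rich genes, 29 of 35 pore and transport genes had a peak (82.9%, 67.3 to 91.9), against 69.9% of all CpG-rich protein-coding genes, a value inside the interval. Thus the excess over all genes was not detectable within CpG-rich genes at this number of genes. Among the other genes the counts were 6 of 9 (66.7%, 35.4 to 87.9), against 14.1% of all protein-coding genes that are not CpG-rich. Those 6 genes are *Ipo4*, *Ipo8*, *Kpna7*, *Nup35*, *Nup93* and *Xpo6*, and in each the peak stood at another TSS than that of the longest transcript, between 2211 bp (*Ipo4*) and 73387 bp (*Kpna7*) away from it. At the TSS with the peak their CpG ratio was 0.528 for *Ipo8* and between 0.708 and 0.754 for the other 5 genes. A peak counted at any TSS, so these 6 genes were counted through a TSS other than the one that set their class. The 9 genes that are not CpG-rich also had a higher median number of TSSs than all such protein-coding genes. The median was higher in the 44 genes than in all protein-coding genes as well. The part of the number of TSSs in the share of 66.7% was not tested. Expression in Ba/F3 cells was not analysed here, so its part in these shares was not tested.

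**Figure D1:**
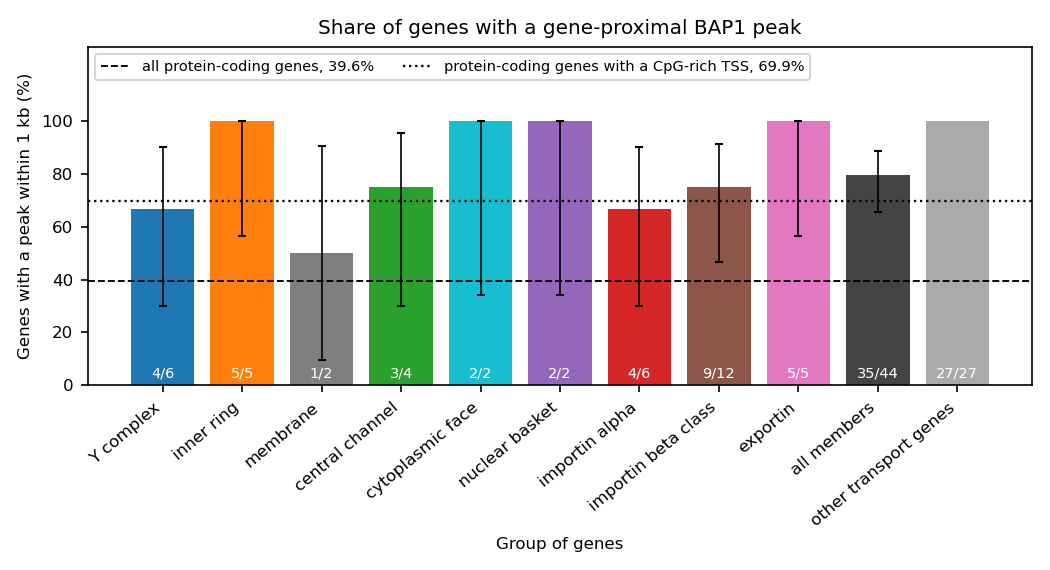
Share of genes with a BAP1 peak within 1 kb of a TSS (y axis, %) for each group of pore and transport genes, for all 44 together and for a second list of transport genes (x axis), with 95% Wilson intervals as error bars, except for the second list, which was chosen by hand, and the counts at the foot of the bars. The inner ring, the cytoplasmic face, the nuclear basket and the exportins reach 100%, and every interval of a group of 12 genes or fewer is wide enough to hold the value of CpG-rich protein-coding genes, 69.9% (dotted line).

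Peaks stood close to the TSS. For the 35 genes with a peak, the median position of the nearest peak middle was 30.0 bp upstream (quartiles 104.5 and 6.50 bp upstream), against 32.5 bp upstream over all 8850 protein-coding genes with a peak (quartiles 73.0 bp upstream and 0). The nearest peak lay within 300 bp of the TSS at 35 of 35 genes and within 100 bp at 25. These counts were not made for all protein-coding genes, but closeness was general to the list. With a window of 500 bp, 8629 protein-coding genes had a peak, against 8850 with 1 kb. The median distance without regard to side was 38.0 bp here and 46.0 bp over all protein-coding genes with a peak. The middle of the nearest peak was upstream at 30 genes (85.7%) and downstream at 5. The peak covered the TSS at 25 genes (71.4%). Over all protein-coding genes with a peak, 75.0% were upstream and 77.7% covered the TSS. The closest were *Nup35*, 3 bp upstream, and *Kpna1*, 5 bp upstream. The farthest were *Ipo5*, 273 bp upstream, *Kpna3*, 271 bp upstream, and *Kpna7*, 237 bp downstream. No gene came near the limit of 1 kb, since the first gene outside it, *Nup160*, had its nearest peak 2115 bp from the TSS.

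**Figure D2:**
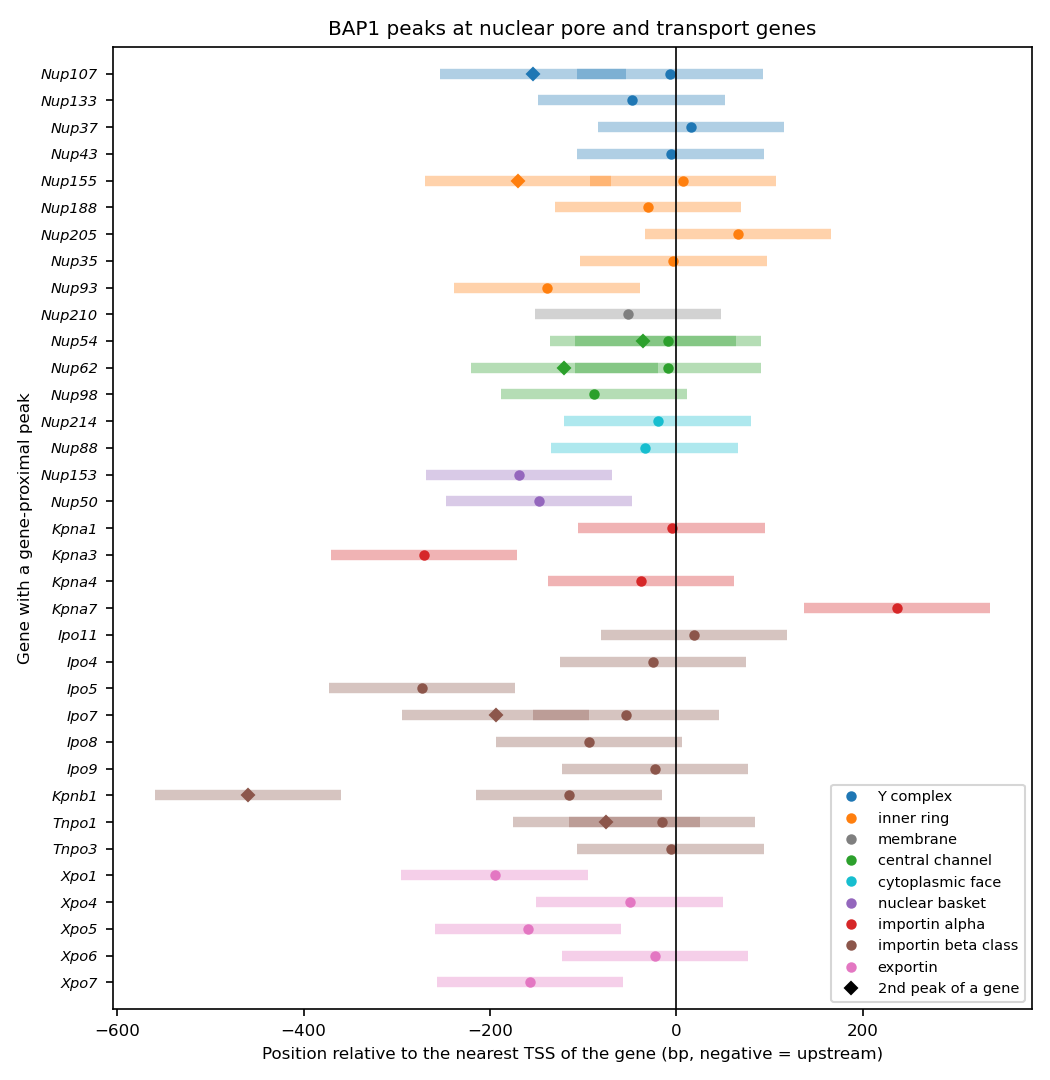
Position of each gene-proximal peak (bars, 200 bp wide; symbols, middle) relative to the nearest TSS of its gene (x axis, bp, negative values upstream) for the 35 genes with a peak (y axis), colored by their place in the pore or their class of carrier, with diamonds for the second peak of a gene. The first bars of 25 genes cover the TSS, those of *Nup153*, *Nup50*, *Nup93*, *Kpna3*, *Kpnb1*, *Ipo5*, *Xpo1*, *Xpo5* and *Xpo7* end upstream of it, that of *Kpna7* is downstream, and the second bars of *Nup54*, *Nup62* and *Tnpo1* are drawn against another TSS than the first.

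Within the scaffold, the Y complex had a peak at 4 of 6 genes. This complex is needed to build pores both after mitosis and in interphase. The peak middle was 7 bp upstream of the TSS at *Nup107* (ENSMUSG00000052798.6), 48 bp upstream at *Nup133*, 6 bp upstream at *Nup43* and 16 bp downstream at *Nup37*, so each of these peaks covered the TSS. The remaining members, *Nup85* and *Nup160*, had none. The inner ring, which lines the channel and ties the scaffold to the membrane, had a peak at 5 of 5 genes. The positions were 3 bp upstream for *Nup35*, 30 bp upstream for *Nup188*, 139 bp upstream for *Nup93*, and 7 and 66 bp downstream for *Nup155* and *Nup205*.

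In the membrane, *Nup210*, which spans the envelope, had a peak 52 bp upstream of its TSS, and the related *Nup210l* had none within 1 kb. In the central channel, peaks stood at *Nup62* and *Nup54*, which form a complex of repeat-bearing subunits, each 9 bp upstream, and at *Nup98*, 88 bp upstream. *Nup98* was counted with the channel although it is found on both faces of the pore. The related gene *Nup62cl* had no peak. On the cytoplasmic face, *Nup214* and *Nup88*, which bind each other and take part in export, had peaks 20 and 34 bp upstream. In the nuclear basket, the peaks of *Nup153* and *Nup50* lay 169 and 147 bp upstream, and neither covered the TSS. The basket is the part that importins and exportins meet first on the nuclear side.

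Importin alpha proteins read the classical localization signal, and 4 of their 6 genes had a peak. It stood 5 bp upstream at *Kpna1*, 38 bp upstream at *Kpna4*, 271 bp upstream at *Kpna3* and 237 bp downstream at *Kpna7*, whereas *Kpna2* and *Kpna6* had none. The importin beta class, which binds the repeats of the channel, had a peak at 9 of 12 gene identifiers. *Kpnb1*, the partner of importin alpha, had its nearest peak 115 bp upstream. In *Ipo4*, *Ipo7*, *Ipo8*, *Ipo9* and *Ipo11*, carriers of ribosomal proteins, histones and other cargo, the distance was between 19 bp (*Ipo11*, downstream) and 94 bp (*Ipo8*, upstream), and it was 273 bp upstream in *Ipo5*. Transportin genes had peaks 15 bp upstream (*Tnpo1*) and 6 bp upstream (*Tnpo3*, which carries SR splicing factors), and *Tnpo2* had none.

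All 5 exportin genes of the list had a peak, and in all 5 its middle was upstream of the TSS. Over all protein-coding genes 39.6% had a peak, and 75.0% of those had it upstream. *Xpo1* encodes the exporter of proteins with a leucine-rich export signal, and its peak was 195 bp upstream. The peak was 159 bp upstream at *Xpo5*, which exports precursor microRNAs, and 157 bp upstream at *Xpo7*. It was closer at *Xpo4* (50 bp upstream) and *Xpo6*, the exporter of actin (23 bp upstream). Only these last 2 exportin peaks covered the TSS. The median position over the exportins was 157 bp upstream and that over the inner ring 3 bp upstream, with 5 genes each, and the ranges of distance overlapped.

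The *Nup160* gene (ENSMUSG00000051329.7, chr2:90517372-90576485, plus strand) encodes a core subunit of the Y complex and was the nearest to the limit among genes without a peak. A BAP1 peak at chr2:90519388-90519587 lay 2115 bp downstream of its TSS, which is the same in RefSeq. Among the 44 genes, this was the only peak that lay inside a gene and beyond 1 kb of its TSSs. It fell in exon 2 of the transcript Nup160-001 (chr2:90519171-90519665), and it covered the first coding base of the gene at 90519566. The CpG ratio was 0.185 at the annotated TSS and 0.859 around the middle of the peak.

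The other genes without a peak had their nearest one at or near the TSS of another gene, with the exception of *Kpna2*. For *Ipo13* it lay 3045 bp from an alternative TSS and 22930 bp from the RefSeq TSS, at the promoter of *Dph2*. *Tnpo2* had its nearest peak 10101 bp upstream at *2310036O22Rik*, and 9 peaks between 1 and 50 kb of its TSSs, the highest count of the 44 genes. For *Kpna6* the nearest peak was 13936 bp downstream, at the TSS of *Txlna*. For *Nup85*, another Y complex subunit, it was 20881 bp downstream of the nearest TSS, at *Mrps7*, and for *Nup210l* 24579 bp upstream, at *Tpm3*. *Nup62cl*, on chromosome X, was 393860 bp from the nearest peak, which stood at *Prps1*. *Kpna2*, an importin alpha that is abundant in dividing cells, had its nearest peak 13226 bp upstream, 8027 bp from the closest TSS, that of *Gm11708*. The fragment with the *Ipo11* symbol was 89629 bp from the peak at the promoter of the full gene.

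**Figure D3:**
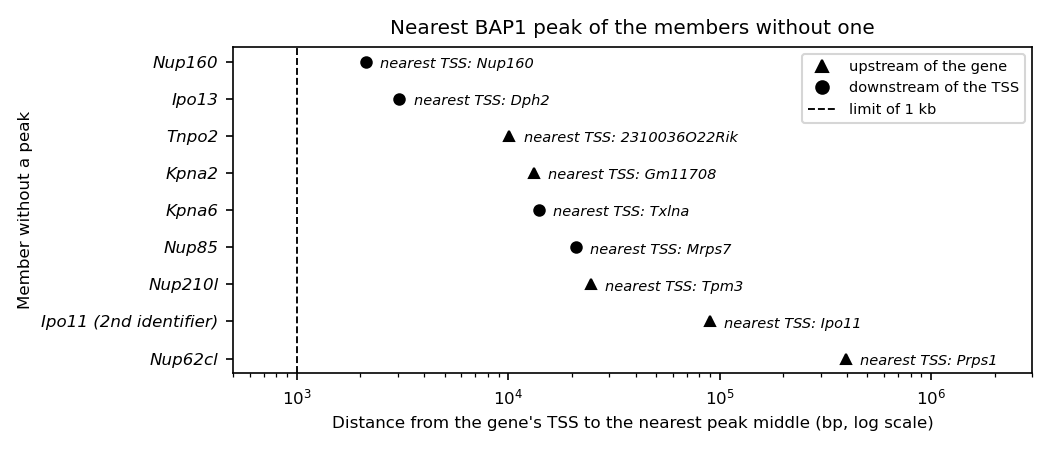
Distance from the nearest TSS of the gene to the nearest peak middle (x axis, bp, log scale) for the 9 gene identifiers without a peak within 1 kb (y axis), with the gene whose TSS is nearest to that peak; triangles are upstream and circles downstream. The distances run from 2115 bp at *Nup160* to 393860 bp at *Nup62cl*, and the peak is closest to the gene's own TSS at *Nup160* alone.

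At the TSS of the longest transcript, taken alike for every gene, the median CpG ratio was 0.830 in the 35 genes with a peak and 0.692 in the 9 without, while over all protein-coding genes it was 0.761 with and 0.294 without a peak. Among the genes without a peak, *Nup160* (0.185), the *Ipo11* fragment (0.265) and *Nup210l* (0.401) were under 0.6, and *Kpna2* (0.837), *Tnpo2* (0.820), *Nup62cl* (0.785) and *Kpna6* (0.760) were well above it. The genes with a peak ran from 0.0697 at *Kpna7*, 0.153 at *Ipo8* and 0.168 at *Nup93* to 1.06 at *Kpna1*, so both groups overlapped. When the TSS nearest to the peak was taken for genes that have one, the median was 0.825 and the lowest value 0.528 (*Ipo8*), but that choice of TSS depends on the peak.

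**Figure D4:**
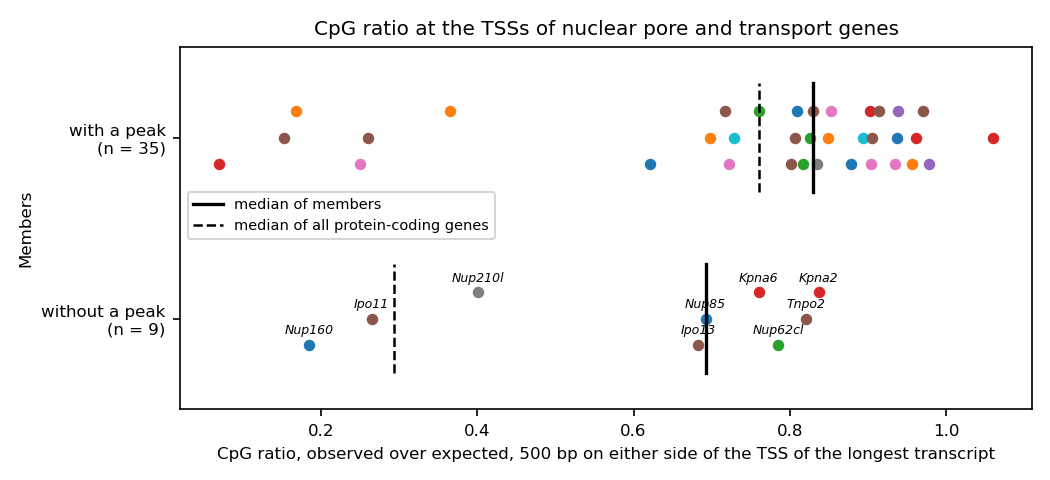
CpG ratio (x axis, observed over expected within 500 bp on either side of the TSS of the longest transcript) of the 35 pore and transport genes with and the 9 without a gene-proximal peak (y axis), each point a gene in the color of its group in the plot of peak positions, spread vertically for legibility. Solid lines are the medians of these genes and dashed lines those of all protein-coding genes; 6 of the genes with a peak and 3 of those without lie under 0.6.

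More than 1 gene-proximal peak was found at 7 genes (15.9% of the 44), against 10.1% of all protein-coding genes, and among genes with a peak the share was 20.0% against 25.5%. At 6 of them the peaks were neighbors, with 123 bp between the middles at *Nup54*, 140 at *Ipo7*, 147 at *Nup107*, 177 at *Nup155*, 193 at *Nup62* and 345 at *Kpnb1*. Apart from the pair at *Kpnb1*, the peaks of each pair overlapped. *Tnpo1* (transportin 1, chr13:99608974-99696339, minus strand) differed from these, because its peaks were 35402 bp apart at 2 alternative promoters, 15 bp upstream of the inner TSS and 75 bp upstream of the outer one. Both covered the TSS they belong to.

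Of the 35 genes with a peak, 8 (22.9%) had a protein-coding gene on the opposite strand that starts within 1 kb, close to the 23.3% of all protein-coding genes with a peak. The pairs were *Nup62* with *Atf5*, *Nup98* with *Pgap2*, *Nup88* with *Rpain*, *Nup188* with *Dolk*, *Nup37* with *4930547N16Rik*, *Xpo5* with *Polh*, *Xpo7* with *Dok2* and *Kpna7* with *Arpc1a*. A peak at such a promoter belongs to both genes by the rule used. A TSS within 1 kb was also annotated for Il4i1 at both *Nup62* peaks and for Gm15564 at the *Kpna1* peak. At *Nup98* the peak middle fell on a TSS of *Pgap2*, 88 bp from that of *Nup98*, at *Nup188* it was 30 bp from its own TSS and 13 bp from that of *Dolk*, and at *Xpo5* it was 159 bp from its own TSS and 74 or 71 bp from those of *Polh*, which encodes a DNA polymerase. *Kpna7* stands apart. Its peak was 237 bp from the TSS of the transcript Kpna7-003 and 37 bp from a TSS of *Arpc1a*, an actin nucleation subunit, while the RefSeq TSS of *Kpna7* was 44365 bp from the nearest peak and the CpG ratio at the TSS of its longest transcript was 0.0697.

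Letters of 9 motifs of factors that act at promoters were looked for in the peaks on either strand. A match of letters alone does not show a site in use, and binding of these factors was not tested. The CCAAT box (NFY, CCAAT) was present in 19 of the 42 peaks (45.2%, 95% interval 31.2 to 60.1), against 30.0% of all 10073 gene-proximal peaks and 23.6% of the 3091 gene-distal peaks. By gene it was present at 17 of 35, among them *Kpnb1*, *Ipo5*, *Ipo9*, *Kpna4*, *Xpo1*, *Xpo4*, *Xpo6* and *Tnpo1* of the carriers and *Nup155*, *Nup93*, *Nup98*, *Nup88*, *Nup214*, *Nup37*, *Nup43*, *Nup50* and *Nup62* of the pore. Its median position was 91.0 bp upstream of the TSS. The SP1 and KLF motif (GGGCGG) was in 23 peaks (54.8%, 39.9 to 68.8), against 68.6% of all gene-proximal peaks. The ETS motif (CCGGAAG) was in 11 peaks (26.2%, 15.3 to 41.1) against 20.2%. For NFY the value of all gene-proximal peaks, 30.0%, was just below the interval, and for SP1 and KLF and for ETS it was inside. The interval treats the 42 peaks as independent, but some overlap, and those of *Nup155* share 1 CCAAT box, 78 bp upstream. It may therefore be too narrow. No allowance was made for the search of 9 motifs.

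The NRF1 core (GCGCATGC) was in 5 peaks of 4 genes, *Nup107*, *Nup50*, *Nup62* and *Xpo5* (11.9%, 5.19 to 25.0, against 5.80% of all gene-proximal peaks). The overlapping peaks of *Nup107* share 1 palindrome, which is why the gene count is lower. The E2F motif (TTCCCGC) was in 5 peaks, at *Nup107*, *Nup133*, *Nup210*, *Nup62* and *Tnpo1* (11.9% against 7.13%), and the E-box (CACGTG) in 5, at *Ipo4*, *Ipo7*, *Nup188*, *Nup54* and *Nup93* (11.9% against 8.06%). YY1 letters (AAGATGG) were found at *Ipo9*, *Nup188*, *Nup205* and *Nup88* (9.52% of peaks against 6.33%), and those of CREB and ATF (TGACGTCA) at *Nup133* and *Nup214* (4.76% against 3.35%). The ZNF143 and THAP11 motif (ACTACAA) was in 0 of 42 peaks (upper limit of the interval 8.38%) and in 2.92% of all gene-proximal peaks. Each of these background values lay within the interval of the pore and transport genes. The end of the ETS letters can overlap the start of the YY1 letters by AAG. None of the 9 motifs was found in the peaks of *Ipo8*, *Ipo11*, *Kpna1* and *Xpo7*. Counted by peak, 7 of 42 held none (16.7%), against 10.7% of all gene-proximal peaks.

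**Figure D5:**
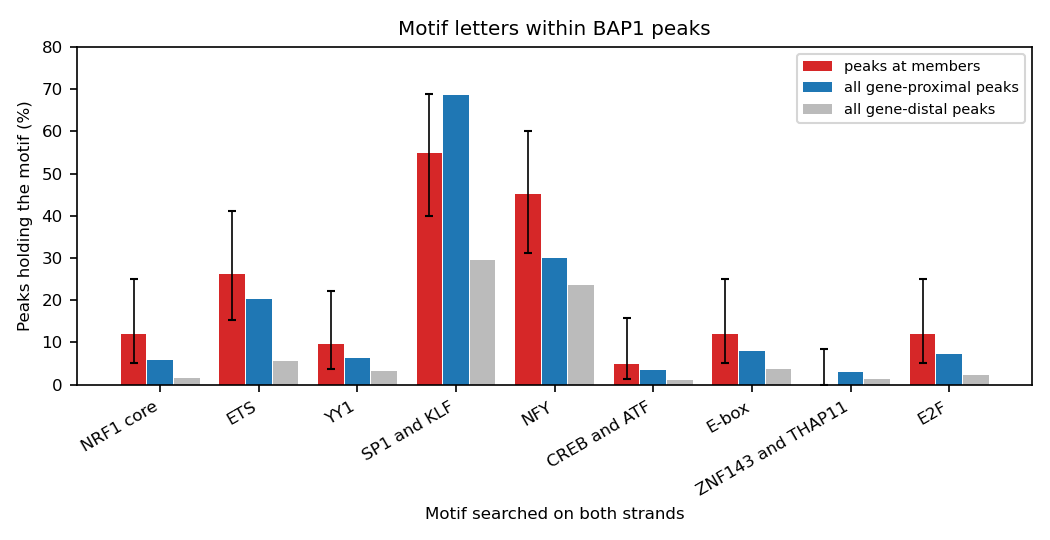
Share of peaks (y axis, %) that hold the letters of each motif (x axis) among the 42 peaks at pore and transport genes (95% Wilson intervals as error bars), all 10073 gene-proximal and all 3091 gene-distal peaks. The CCAAT box is in 45.2, 30.0 and 23.6% of the peaks in this order, and SP1 and KLF letters in 54.8, 68.6 and 29.6%.

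The same search was made over the promoters, from 250 bases before to 50 after the TSS. The TSS nearest to the peak was taken for genes with one, and that of the longest transcript for the others. The choice of TSS thus depends on the peak. The CCAAT box was in 17 of 35 promoters of genes with a peak (48.6%), in 4 of 9 without (44.4%) and in 37.4% of all protein-coding promoters. For SP1 and KLF the shares were 65.7, 66.7 and 46.2%. YY1 letters were in 4 of 35 and 1 of 9 (6.98% of all promoters). ETS letters were in 7 of 35 promoters with a peak and 0 of 9 without, against 11.7% of all promoters. The other motifs were also in 0 of 9 promoters without a peak. Of the 35 with a peak, 4 held the NRF1 core (3.56% of all promoters) and 5 the E-box (7.86%). E2F letters were in 3 (5.94%), CREB and ATF letters in 2 (2.43%), and ZNF143 and THAP11 letters in 1 (3.64%). With 9 genes, these differences in share are not interpretable beyond the counts.

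A second list held 27 further genes of the same transport system whose symbols do not follow the naming rule, and all 27 had a gene-proximal peak, against 39.6% of all protein-coding genes. Of these, 24 were CpG-rich at the TSS of the longest transcript, and 69.9% of all CpG-rich protein-coding genes had a peak. The list was put together by hand from known transport genes with results of these data known, so its count is a description with no interval and was not pooled with the first. For the *Ran* cycle these are *Ran*, with a peak 51 bp upstream of the TSS, its exchange factor *Rcc1* (9 bp upstream), *Rangap1*, which activates its GTPase (269 bp upstream), and *Ranbp1* (134 bp upstream). The list also holds *Nutf2*, which returns *Ran* to the nucleus, with a peak 201 bp upstream. Other pore subunits in it were *Ranbp2* on the cytoplasmic filaments (37 bp upstream), *Tpr* in the basket (71 bp upstream), *Aaas* (14 bp upstream), the membrane protein *Pom121* (12 bp upstream) and *Tmem48*, also known as *Ndc1* (12 bp downstream). *Ahctf1*, *Seh1l* and *Sec13* are further parts of the Y complex, to which NUP96, a product of the *Nup98* gene counted here with the channel, belongs as well. Their peaks lay 209 bp upstream and 36 and 11 bp downstream. Of the carriers, *Cse1l*, which returns importin alpha to the cytoplasm, had a peak 262 bp downstream and *Xpot*, the exporter of tRNA, 190 bp upstream. For mRNA export, peaks were found at *Nxf1* (70 bp upstream), its partners *Nxt1* (50 bp upstream) and *Nxt2* (5 bp upstream), *Rae1* (16 bp upstream) and *Gle1* (17 bp upstream).

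In the second list 4 genes had more than 1 peak, namely *Ahctf1*, *Nxt2*, *Pom121* and *Rcc1*. The CCAAT box was in 6 of the 31 peaks of this list (19.4%), against 45.2% of the peaks of the first list and 30.0% of all gene-proximal peaks. Thus the high share of this motif in the first list was not seen in the second.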

How the data were processed

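The authors aligned ChIP-Seq reads with Bowtie 1.0.0 (mm9) and used MACS 1.4.2 with input DNA as control to find peaks, per the submitters' processing notes and the paper's methods. They deposited 1 list of intervals, each 200 bp wide, without a score. How MACS was thresholded and how both samples were joined is not given in the sources used here, and a looser or stricter threshold would move all shares. The depth per sample is unknown, and 0 per-sample columns were unmatched.

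Peak middles were assigned to genes by distance, within 1 kb, from any transcript's TSS in GENCODE M1 (NCBIM37, mm9). CpG ratios, motif letters and sequences were read from NCBIM37. RefSeq TSSs (promoter table of build GRCm38.p6) were placed by exact match of 300 bases, at 34 of 44 genes. All members are named, with the other genes whose TSS lies within 1 kb of a member's gene-proximal peak. Members and lists were chosen with earlier results of these data known. No test was made, since there are no replicates. Functions were tested on simulated data, where 2000 of 2000 peak sets equaled a brute-force search and 1800 of 1800 planted motifs were found. Alternatives were other windows, the peak edge, other TSSs, merged peaks and other gene sets. Python 3.11.15 with numpy 2.4.6 was used.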

Additional observations from a re-analysis of the deposited data

How the results depend on the processing

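The count of 35 genes with a gene-proximal peak was the same with windows of 500 bp and 2 kb, with the peak edge, with TSSs of coding transcripts only, after merging peaks within 500 bp and without symbols that carry letters after the number. It was 29 with the TSS of the longest transcript alone (37.0% of all protein-coding genes then had a peak) and 28 of 34 placed genes with RefSeq TSSs (42.5% of all placed genes), an alternative chosen after seeing the data. With RefSeq TSSs *Ipo13*, *Kpna2*, *Kpna7*, *Nup160*, *Nup62cl* and *Tnpo2* had none, so among the placed genes *Kpna7* alone lost its peak. For 6 genes with a peak (*Kpna1*, *Kpna3*, *Nup35*, *Nup43*, *Xpo4*, *Xpo7*) no RefSeq TSS was placed. Of 50 values under alternatives, 3 moved and 47 were counted as the same, although some of these shifted. The median distance without regard to side, 38.0 bp, was 52.0 bp with the TSS of the longest transcript, with merged peaks and with RefSeq TSSs. These values and the count of 29 are among the 47. The number of genes with 2 or more peaks was 1 in place of 7 after merging peaks within 500 bp, which left *Tnpo1*. The median distance without regard to side was 0 bp in place of 38.0 bp when taken from the peak edge. This is because most peaks cover the TSS. Within 250 bp of the TSS, the median CpG ratio of the 9 genes without a peak was 0.823 in place of 0.692. For the genes with a peak, at the TSS nearest to it, the median was 0.885 in place of 0.825. The groups thus lay closer together in this window, and the cause was not tested. No paired analysis was possible because the result comes from no test. The list used here has no scores or depth, so weak and strong peaks could not be told apart from it. The paper states that its supplement gives normalized read intensities around each peak summit, which were not used here. A gene without a listed peak may have binding below the threshold.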

Other observations

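Among the other transport genes, *Rcc1*, the exchange factor of Ran on chromatin, had 2 gene-proximal peaks with 7944 bp between their middles, at different promoters. *Nxt2* had peaks with 480 bp and *Ahctf1* with 604 bp between the middles. *Ranbp17*, a relative of *Xpo7*, had 1 further peak in an intron, 84706 bp from its nearest TSS.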
